A study of Homo sapiens with 6 samples.

Results

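The genes described here are the expressed long intergenic noncoding RNAs (lincRNAs) of U937, an established human monocytic cell line. Members were chosen by their read counts: a gene entered when GENCODE v29 gave it the type lincRNA, when it lay on chromosomes 1 to 22 other than chromosome 8, and when its counts over the 6 libraries summed to at least 300. Of 18798 genes in the count table, 1106 had the type lincRNA, 1033 of these lay on the chromosomes of the rule, and 161 reached the minimum, while 872 did not. The sum runs over both groups, so the level of the members is fixed by the rule and is given as description. Just inside the minimum stood AP006621.3 with 309 counts, AC073335.2 with 316 and AC012360.3 with 317, and just outside stood AC012306.2 with 297 counts and AC144652.1 and AL033527.5 with 295 each. All 161 members also passed the expression filter of the test.

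The ΔNSPs group held 3 libraries, from U937 clones called independent in the labels, in which CTSG, ELANE and PRTN3 were depleted at once. These genes encode the neutrophil serine proteases cathepsin G, neutrophil elastase and proteinase 3. The Control group held 3 libraries of U937 lines that received control plasmids. Cells of both groups were genetically modified, selected with geneticin and sampled as total RNA. Nothing in the labels states how alike the starting cells of the clones were, so the p-values below measure the spread between these 6 libraries. In bulk RNA, fewer cells that express a gene and less of its RNA per cell cannot be told apart.

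A lincRNA is transcribed like an mRNA and usually capped, spliced and polyadenylated, but has no long open reading frame. Some act as RNA: they scaffold nuclear bodies, hold RNA-binding proteins, or act on a gene close by. Others are best known for what they carry, such as a microRNA or a small nucleolar RNA (snoRNA) cut from their exons or introns. In myeloid cells several lincRNAs are induced by inflammatory signals, MIR155HG among them.

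Libraries had 12184903 to 13782854 counts in ΔNSPs clones and 11476619 to 13543076 in Control lines, and 3 counts corresponded to 0.214 to 0.260 CPM, the unit used below, in which each count is divided by its library's TMM-corrected total. CTSG averaged 97.2 ± 46.7 CPM in ΔNSPs clones and 2377 ± 438 CPM in Control lines, ELANE 23.9 ± 20.3 CPM in ΔNSPs clones and 1128 ± 182 CPM in Control lines, and PRTN3 39.9 ± 34.0 CPM in ΔNSPs clones and 310.2 ± 204 CPM in Control lines (SD, n = 3 each). None of the 3 overlapped between the groups. The ΔNSPs clones differed in PRTN3, at 0.857, 63.3 and 55.4 CPM in clones 1, 2 and 3. Of 10 monocytic markers, 9 had a mean over 1 CPM, with a summed level of 938 to 1347 CPM in ΔNSPs clones and 1039 to 1127 CPM in Control lines. T cell markers summed to at most 0.422 CPM in ΔNSPs clones and 0.260 CPM in Control lines. Epithelial markers summed to at most 0.985 CPM in ΔNSPs clones and 0.868 CPM in Control lines, and fibroblast markers to 0.590 to 9.40 CPM in ΔNSPs clones and 5.30 to 6.82 CPM in Control lines. B cell markers summed to 25.6 to 29.4 CPM in ΔNSPs clones and 24.2 to 33.6 CPM in Control lines, and erythroid markers to 88.3 to 116.5 CPM in ΔNSPs clones and 76.6 to 135.6 CPM in Control lines. The part of these levels in the lincRNA results was not tested.

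The type lincRNA did not mean that every member stood alone in the genome. The span of a protein-coding gene overlapped 68 of the 161 members, and 60 shared exon bases with a coding gene, 55 of them on the opposite strand. Counting other noncoding genes and pseudogenes too, 90 members shared exon bases with another gene, and a further 9 did not but had at least 20% of their sequence in near-identical copies elsewhere (95% identity or more over at least 100 bases). The remaining 62 had exons and sequence of their own. The strand setting of the counting is not given in the sources used here, so reads from a member and from a gene on its other strand cannot be told apart. A value for one of the 99 others is therefore uncertain as to its gene.

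The member with the highest CPM is of that kind. AC021224.1 (ENSG00000262477, chr18:32412182-32413236, plus strand) lies opposite HNRNPA1P7, a processed pseudogene of HNRNPA1, which encodes an abundant splicing regulator. Read on the minus strand, 314 bases in a row were identical to coding sequence of HNRNPA1 (GENCODE v29, GRCh38). AC021224.1 had 408, 429.9 and 435 CPM in ΔNSPs clones 1, 2 and 3, against 493, 444 and 449.9 CPM in Control lines 1, 2 and 3. HNRNPA1P7 averaged 433 CPM in ΔNSPs clones and 459 CPM in Control lines, and HNRNPA1 averaged 891 CPM in ΔNSPs clones and 892 CPM in Control lines. Reads from identical stretches of these 3 genes cannot be told apart by sequence.

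NORAD (ENSG00000260032, chr20:36045622-36050960, minus strand, 1 exon) is a cytoplasmic RNA known to bind PUM2, a Pumilio protein that represses mRNAs. The Pumilio motif TGTANATA, searched on the transcribed strand only, occurred 15 times in the 5339 bases of NORAD, between positions 761 and 4599, or 2.81 per kb. In the longest transcripts of the other 160 members it occurred 0.0995 times per kb, and 23 of the 161 members had at least 1. NEAT1 came next with 6, in 22743 bases. A few of the NORAD sites are shown with 8 bases on each side and the motif in capitals (GENCODE v29, GRCh38, chromosome 20, minus strand); the pair in the middle lies 9 bases apart.
NORAD position 761: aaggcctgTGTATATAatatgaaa
NORAD position 2639: tgctatacTGTATATAttgtatat
NORAD position 2648: gtatatatTGTATATAtaacggac
NORAD position 4599: agcctattTGTAAATAcctttgtt

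Within 5 members lie 8 mature microRNAs of RefSeq (GRCh38.p14), of 7 distinct sequences. Those of 3 hosts are shown, with the seed, bases 2 to 8, in capitals, since MIR155HG, MIR9-3HG and MIR4435-2HG are named for them. No 2 distinct sequences shared a seed, while the copies of miR-4435 in MIR4435-2HG and CYTOR, a pair of related genes on chromosome 2, were letter for letter the same.
hsa-miR-155-5p in MIR155HG, chr21:25573983-25574006, plus strand: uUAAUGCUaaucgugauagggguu
hsa-miR-155-3p in MIR155HG, chr21:25574022-25574043, plus strand: cUCCUACAuauuagcauuaaca
hsa-miR-9-5p in MIR9-3HG, chr15:89368032-89368054, plus strand: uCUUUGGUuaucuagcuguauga
hsa-miR-9-3p in MIR9-3HG, chr15:89368071-89368092, plus strand: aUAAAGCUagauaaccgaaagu
hsa-miR-4435 in MIR4435-2HG, chr2:111321061-111321082, minus strand: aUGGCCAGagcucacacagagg
miR-155 is a regulator of inflammatory responses in macrophages and lymphocytes. The mature microRNAs themselves were not measured, since the counts are those of the host genes.

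The first question was whether the lincRNAs as a group differed between ΔNSPs clones and Control lines. Members took 0.327, 0.327 and 0.332% of all counts in ΔNSPs clones 1, 2 and 3, against 0.328, 0.329 and 0.352% in Control lines 1, 2 and 3. Only Control line 3 stood apart from the others. The means were 0.329 ± 0.00283% in ΔNSPs clones and 0.336 ± 0.0133% in Control lines (SD, n = 3 each), and the exact permutation test gave p = 0.5, two-sided, in a design whose smallest possible p is 0.1. The median log2 fold change (ΔNSPs minus Control) of the 161 members was 0.03, with the middle 50% between -0.20 and 0.27, and that of all 14797 genes tested was 0.00.

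No member passed edgeR's quasi-likelihood test at an adjusted p under 0.05. The lowest adjusted p was 0.16, for AC110285.2. Over all genes tested, 3 passed, or 0.0203%. At an unadjusted p under 0.05, 25 members differed against 17.8% of all genes: 14 were higher in ΔNSPs clones (8.70% of members, against 9.23% of all genes) and 11 were lower (6.83%, against 8.6%). The groups did not overlap for 15 members higher in ΔNSPs clones (9.32%, against 12.2% of all genes) and for 17 lower (10.6%, against 11.7%). DESeq2 called 3 of the 159 members it gave an adjusted p, which were LINC01268 and AC145207.5, both higher, and AC110285.2, lower, while it called 3.98% of all genes. The members' shares thus lay near or below those of the whole table. Differences were mostly small: 135 members (83.9%) lay within 0.5 of zero on the log2 scale, and 3 exceeded 1, with a median SE of 0.23.

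**Figure D1:**
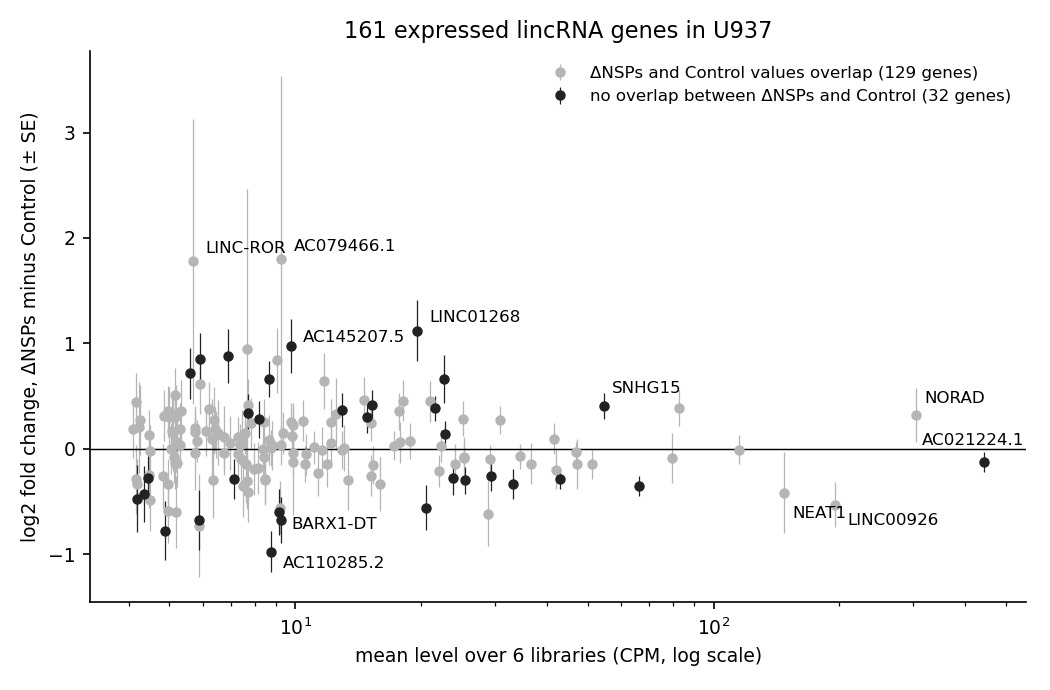
Mean level of each of the 161 members over the 6 libraries (CPM, log scale) against its log2 fold change, ΔNSPs minus Control, with SE from edgeR. Black points are the 32 members whose ΔNSPs and Control values do not overlap; most members lie within 0.5 of zero, and LINC-ROR and AC079466.1, the points with the highest fold changes, have SE of 1.35 and 1.74.

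Among members higher in every ΔNSPs clone than in every Control line, LINC01268 (ENSG00000227502, chr6:113868013-113873351, minus strand) had the highest log2 fold change. It is also known as MROCKI or ROCKI, and in human macrophages it has been described as acting on MARCKS, the gene beside it, which encodes a membrane-bound protein kinase C substrate. LINC01268 had 17.3, 27.5 and 35.6 CPM in ΔNSPs clones 1, 2 and 3, against 15.3, 12.6 and 9.11 CPM in Control lines 1, 2 and 3. Every clone lay above every line, but clone 1 only just. The log2 fold change was 1.12 (SE 0.29; edgeR adjusted p = 0.172, DESeq2 adjusted p = 0.00904). MARCKS, whose nearest edge is 4542 bases away, had 121, 85.0 and 104 CPM in ΔNSPs clones, against 125, 116 and 109 CPM in Control lines, or -0.17 as log2 fold change (SE 0.14; edgeR unadjusted p = 0.263). Its groups overlapped, and a difference in MARCKS was not detectable. The median over the 39 coding genes within 5 Mb of LINC01268 was -0.03.

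Over the 6 libraries the genes most like LINC01268, by Pearson correlation of log2 CPM among all tested genes, were C19orf44 (r = 0.999), AC135050.6 (r = 0.995) and EVI2B (r = 0.994), which encodes a membrane protein of blood cells. EVI2B had 10.5, 16.3 and 21.3 CPM in ΔNSPs clones and 10.8, 8.49 and 6.42 CPM in Control lines. With 6 libraries and so many genes, correlations this high describe an order of libraries and no more.

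The promoter of LINC01268 and that of MIR155HG are shown because both genes are known from macrophages and had higher means in ΔNSPs clones. RefSeq (GRCh38.p14) windows run from 250 bases before to 50 bases after the start, and 63 of the 161 members had one by gene ID or symbol. Capitals mark matches on either strand to 4 short motifs. These were TGANTCA for AP-1, AGGAAGT for the ETS family, to which the myeloid factor PU.1 belongs, the letters TATAAA for the core promoter, and the letters CCAAT for factors that bind there.
LINC01268, chr6:113873298-113873597, minus strand: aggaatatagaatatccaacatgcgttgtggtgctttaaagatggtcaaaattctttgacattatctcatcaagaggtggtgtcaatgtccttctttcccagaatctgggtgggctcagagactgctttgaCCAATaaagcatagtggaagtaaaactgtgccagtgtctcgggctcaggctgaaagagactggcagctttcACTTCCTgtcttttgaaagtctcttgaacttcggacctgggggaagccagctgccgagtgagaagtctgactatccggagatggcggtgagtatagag
MIR155HG, chr21:25561895-25562194, plus strand: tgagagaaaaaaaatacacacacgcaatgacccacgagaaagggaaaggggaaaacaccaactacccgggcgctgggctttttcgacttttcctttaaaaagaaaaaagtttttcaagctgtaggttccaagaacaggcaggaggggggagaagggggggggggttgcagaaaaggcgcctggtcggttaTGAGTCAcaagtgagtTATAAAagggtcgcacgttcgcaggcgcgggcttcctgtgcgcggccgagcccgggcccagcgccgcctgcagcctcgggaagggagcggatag
In LINC01268 the ETS letters began 48 bases before the start and CCAAT 119 bases before it. In MIR155HG the AP-1 letters began 60 and TATAAA 44 bases before the start. The AP-1 letters stood in 9.52% of the 63 member windows and 7.71% of all 35116 windows, and the ETS letters in 11.1% and 8.24%. TATAAA stood in 7.94% of member windows and 11.5% of all, and CCAAT in 39.7% and 34.6%. A match describes letters only, and binding was not measured. CG pairs numbered 6 in the LINC01268 window and 20 in that of MIR155HG, with a median of 23 over the member windows and 14 over all.

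AC145207.5 and AC145207.6 lie opposite each other on chromosome 17 (chr17:81878425-81881106, minus strand, and chr17:81878667-81879557, plus strand), so that their reads may be shared. AC145207.5 had 10.3, 11.97 and 16.4 CPM in ΔNSPs clones 1, 2 and 3, against 7.75, 4.86 and 7.11 CPM in Control lines 1, 2 and 3. All clones lay above all lines, and the log2 fold change was 0.97 (SE 0.26; edgeR adjusted p = 0.176, DESeq2 adjusted p = 0.0259). AC145207.6 averaged 7.60 ± 0.950 CPM in ΔNSPs clones and 4.21 ± 0.940 CPM in Control lines (SD, n = 3 each), a log2 fold change of 0.85. No function of either is given by the annotation.

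Other members without overlap were higher in ΔNSPs clones. AP001505.1 averaged 8.92 ± 2.76 CPM in ΔNSPs clones and 4.85 ± 0.318 CPM in Control lines (log2 fold change 0.88), beside FAM207A (0.52), in a stretch of chromosome 21 whose coding genes had a median of 0.22. AL035071.1 had a log2 fold change of 0.71 and LINC02001 of 0.66. LINC02001 shares exon bases with a coding gene. AC093627.4, named LINC03014 in RefSeq, had 19.2, 37.0 and 27.2 CPM in ΔNSPs clones 1, 2 and 3, against 18.6, 16.3 and 17.8 CPM in Control lines. Clone 1 was close to the Control lines there, and the log2 fold change was 0.66 (SE 0.23; edgeR adjusted p = 0.212). AC092171.2 differed less, by 0.41.

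Among members lower in every ΔNSPs clone, AC110285.2 (ENSG00000262877, chr17:81388126-81390256, minus strand) had the lowest log2 fold change. It had 6.07, 5.99 and 5.57 CPM in ΔNSPs clones 1, 2 and 3, against 10.8, 10.0 and 13.9 CPM in Control lines 1, 2 and 3. The 3 clones lay close together and all below the lines. The log2 fold change was -0.98 (SE 0.20; edgeR adjusted p = 0.16, DESeq2 adjusted p = 0.0066). It has exons and sequence of its own, and the nearest coding gene, BAHCC1, starts 5219 bases away with a log2 fold change of 0.01. The genes most like it over the 6 libraries were PLD3 (r = 0.997), which encodes a lysosomal nuclease, YIF1B (r = 0.994), a gene of transport between endoplasmic reticulum and Golgi, and KNTC1 (r = 0.991), a kinetochore gene.

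BARX1-DT (ENSG00000235601, chr9:93955597-93959140, plus strand) starts 225 bases from BARX1, a homeobox gene on the other strand. BARX1-DT had 8.28, 6.44 and 7.0 CPM in ΔNSPs clones 1, 2 and 3, against 9.89, 9.29 and 13.8 CPM in Control lines 1, 2 and 3, without overlap (log2 fold change -0.60, SE 0.22; edgeR adjusted p = 0.229). BARX1 had 9.28, 6.06 and 5.48 CPM in ΔNSPs clones and 9.71, 9.21 and 13.5 CPM in Control lines, with an overlap at clone 1 (log2 fold change -0.64, SE 0.26). In both genes Control line 3 was the highest library.

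EBLN3P (ENSG00000281649, chr9:37079857-37090507, plus strand) descends from an ancient bornavirus nucleoprotein sequence inserted in the genome. It had 60.04, 56.5 and 58.4 CPM in ΔNSPs clones 1, 2 and 3, against 73.4, 78.4 and 71.2 CPM in Control lines 1, 2 and 3. The spread within groups was small and the groups did not overlap, and the log2 fold change was -0.35 (SE 0.09; edgeR adjusted p = 0.178, DESeq2 adjusted p = 0.0848). Further members below the lines in every clone were AC060780.1 (-0.78, sharing exon bases with coding genes), LINC02067 (-0.68), AC012313.1 (-0.67, with 54% of its sequence in near-identical copies), AC006504.5 (-0.56), AC004982.2 (-0.47) and SH3RF3-AS1 (-0.43), each given as a log2 fold change. None of these passed in edgeR or DESeq2. LINC02067, AC006504.5 and AC004982.2 share exon bases with another gene.

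**Figure D2:**
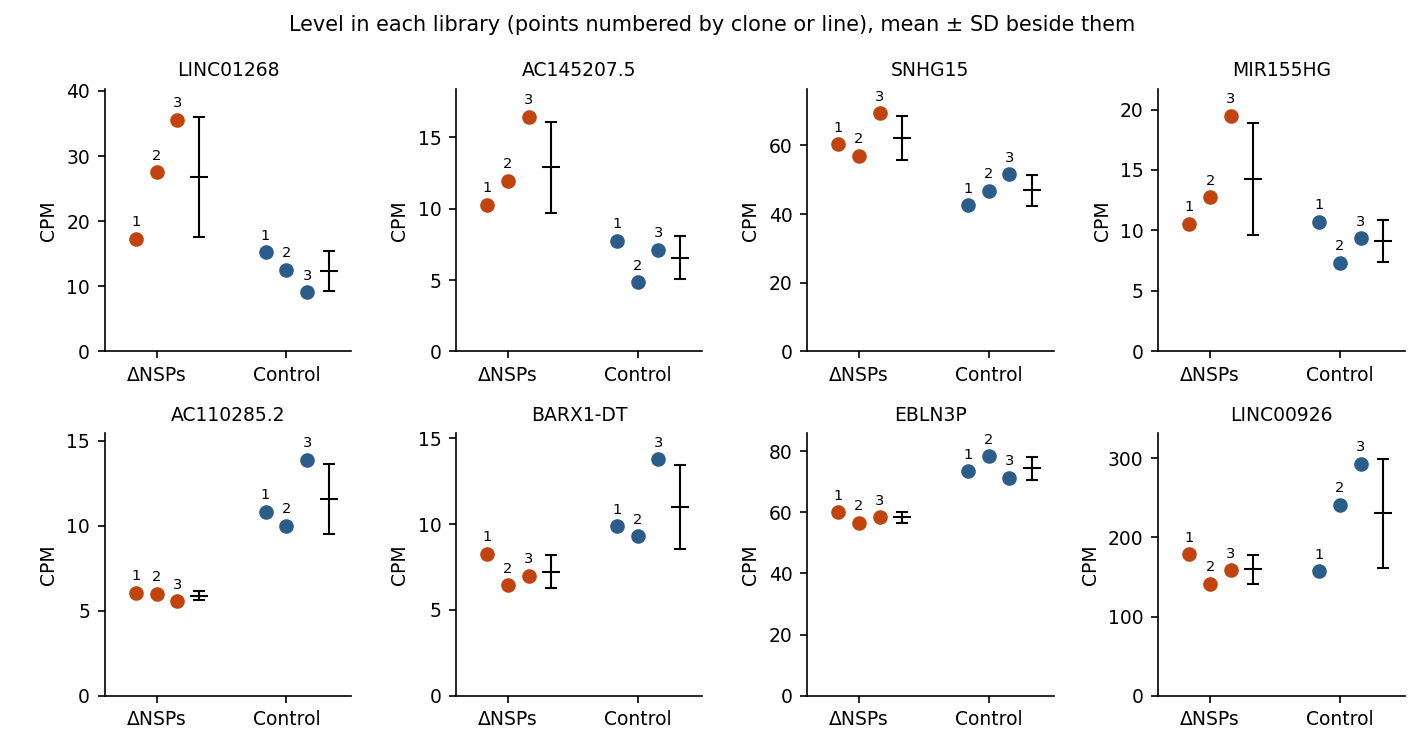
Level of 8 members (CPM, from 0) in ΔNSPs clones and Control lines 1 to 3, each library 1 numbered point, with the mean and SD at the right of each group. LINC01268, AC145207.5 and SNHG15 were higher in every ΔNSPs library, AC110285.2, BARX1-DT and EBLN3P lower, while MIR155HG and LINC00926 overlapped at Control line 1.

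The members can also be read by role, and 6 hold snoRNAs of GENCODE within their span on the same strand. SnoRNAs guide chemical changes of ribosomal and other RNAs, and the counts are those of the hosts. SNHG15 (ENSG00000232956, chr7:44983023-44986961, minus strand) had 60.4, 56.9 and 69.4 CPM in ΔNSPs clones 1, 2 and 3, against 42.5, 46.8 and 51.5 CPM in Control lines 1, 2 and 3. All clones lay above all lines (log2 fold change 0.41, SE 0.12; edgeR adjusted p = 0.185). EPB41L4A-AS1 had 23.5, 21.4 and 23.5 CPM in ΔNSPs clones, against 29.1, 24.9 and 30.5 CPM in Control lines, lower in each clone (-0.30, SE 0.13; edgeR adjusted p = 0.276). EPB41L4A-AS1 shares 49.6% of its exonic length with EPB41L4A, whose log2 fold change was 0.30. SNHG19 (0.33), SNHG4 (0.06) and SNHG8 (-0.14) overlapped between groups. LINC02001, named SNHG30 in RefSeq and host of SNORD7, is the sixth, with the log2 fold change of 0.66 given above, and the median of the 6 was 0.20. Of 28 snoRNA host genes of any type tested, 0 passed edgeR's adjusted threshold. An unadjusted p under 0.05 was found for 7 higher (25% of them, against 9.23% of all genes) and 2 lower (7.14%, against 8.6%), with a median of 0.12. Translation-related mRNAs of the 5′ TOP class, many of which also host snoRNAs, had 0 of 14 higher and 2 lower at that level (14.3%, against 8.6% of all genes), with a median of -0.12. The difference between the lists was not tested.

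Of the microRNA hosts, MIR155HG had 10.6, 12.7 and 19.5 CPM in ΔNSPs clones 1, 2 and 3, against 10.7, 7.33 and 9.37 CPM in Control lines 1, 2 and 3. Clone 3 was the highest library, and clone 1 lay just under Control line 1. The log2 fold change was 0.64 (SE 0.27; edgeR adjusted p = 0.268). The 10 coding genes within 5 Mb on chromosome 21 had a median of 0.30, and less that median MIR155HG stood at 0.34; the part of the chromosome stretch in the difference was not tested. MIR9-3HG averaged 8.93 ± 0.870 CPM in ΔNSPs clones and 8.41 ± 2.31 CPM in Control lines (SD, n = 3 each). Over 17 microRNA hosts of any type, 0 passed the adjusted threshold. An unadjusted p under 0.05 was found for 3 higher (17.6%, against 9.23% of all genes) and 2 lower (11.8%, against 8.6%).

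MIR4435-2HG had 44.0, 44.7 and 28.4 CPM in ΔNSPs clones 1, 2 and 3, against 40.6, 50.1 and 43.9 CPM in Control lines 1, 2 and 3 (log2 fold change -0.20, SE 0.18). Only clone 3 stood apart. In mice its counterpart, Morrbid, represses the neighbouring Bcl2l11 gene and prolongs the life of myeloid cells. BCL2L11 had 66.8, 48.7 and 37.4 CPM in ΔNSPs clones and 58.2, 74.3 and 67.4 CPM in Control lines (-0.38, SE 0.20; edgeR unadjusted p = 0.0966), and here too clone 3 was the lowest library. CYTOR, of which 30% lies in sequence near-identical to MIR4435-2HG and other copies, averaged 10.2 ± 0.721 CPM in ΔNSPs clones and 9.41 ± 0.798 CPM in Control lines. Reads of the pair may be split between them.

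NEAT1, MALAT1 and NORAD overlapped between the groups. NEAT1 (ENSG00000245532, chr11:65422774-65445540, plus strand) is the scaffold of paraspeckles. NEAT1 had 201 CPM in ΔNSPs clone 1, 65.0 in clone 2 and 111 in clone 3, against 118, 169 and 218 CPM in Control lines 1, 2 and 3. The ΔNSPs clones thus spanned nearly the whole range of the 6 libraries (log2 fold change -0.42, SE 0.38; edgeR adjusted p = 0.593). MALAT1, a nuclear speckle RNA from the same stretch of chromosome 11 that shares exon bases with AP000769.2, had 85.9, 90.9 and 54.3 CPM in ΔNSPs clones and 64.6, 75.7 and 106 CPM in Control lines, a different order of libraries (-0.09, SE 0.24). NORAD had 205, 419 and 391 CPM in ΔNSPs clones and 320.4, 249 and 246 CPM in Control lines, with clone 1 the lowest library and clones 2 and 3 the highest (0.32, SE 0.25; edgeR adjusted p = 0.533). Of the NORAD sequence, 86% lies in near-identical copies. PUM2 had a log2 fold change of 0.01. Among 15 tested genes for paraspeckle and RNA-processing proteins, 0 passed the adjusted threshold. An unadjusted p under 0.05 was found for 5 higher (33.3%, against 9.23% of all genes) and 1 lower (6.67%, against 8.6%).

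Per kilobase of exon the order of the members changed. Among some abundant members, LINC00926 (53.1 CPM per kb) and NORAD (57.2 CPM per kb) stood above SNHG15 (15.0), MALAT1 (9.02) and NEAT1 (6.46). The 22767 exonic bases of NEAT1 are the most of any member. AC021224.1, with 443 CPM and a transcript of 857 bases, stood above all of these per kb, with the doubt about its reads given above. The median over members was 4.78 CPM per kb, against 6.46 for tested protein-coding genes. Members had to reach the count minimum of the rule, while coding genes had only to pass the expression filter of the test. The medians therefore cannot show how lincRNAs and coding genes compare in level. By CPM, 63 of 161 members exceeded 10 and 5 exceeded 100, and the 10 most abundant took 44.8 to 46.3% of the members' counts in ΔNSPs clones and 46.0 to 47.8% in Control lines.

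LINC00926 (ENSG00000247982, chr15:57300365-57307769, plus strand) was the most abundant member with exons and sequence of its own. It had 178, 141 and 159 CPM in ΔNSPs clones 1, 2 and 3, against 157, 241 and 293 CPM in Control lines 1, 2 and 3. Control lines 2 and 3 lay above all clones and Control line 1 among them (log2 fold change -0.53, SE 0.21; edgeR adjusted p = 0.26). Without Control line 1 the log2 fold change was -0.74, and without Control line 3 it was -0.32. Of 19 tested lncRNAs linked to myeloid or immune cells, 0 passed the adjusted threshold. An unadjusted p under 0.05 was found for 2 higher, LINC01268 and MIR155HG (10.5%, against 9.23% of all genes), and 3 lower, LINC00926 among them (15.8%, against 8.6%). Log2 fold changes of the 19 ran from -1.93 to 1.12, with a median of 0.065. The p53, stress and growth list held 5 members, all overlapping between groups, among them CRNDE (-0.10) and LINC00467 (0.03).

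The most unequal members did not follow the groups at all. LINC-ROR (ENSG00000258609, chr18:57054558-57072119, minus strand), known from human pluripotent stem cells as a regulator of reprogramming, had 1, 120 and 204 counts in ΔNSPs clones 1, 2 and 3, against 80, 4 and 7 counts in Control lines 1, 2 and 3. AC079466.1 (ENSG00000266976, chr19:28606688-28615229, plus strand) had 1, 566 and 0 counts in ΔNSPs clones, against 120, 15 and 13 counts in Control lines. The 0 counts of clone 3 allow up to 0.253 CPM. AC112484.3 (ENSG00000261159, chr3:128859716-128860526, minus strand) had 6, 387 and 5 counts in ΔNSPs clones, against 160, 15 and 12 counts in Control lines.

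All 3 were thus high in ΔNSPs clone 2 and Control line 1, and low in ΔNSPs clone 1 and Control lines 2 and 3. They were named for the widest ranges within the groups, and each reached the minimum of 300 counts only with its high libraries. A pattern apart from the groups is therefore built into their choice. LINC-ROR was also high in ΔNSPs clone 3, where the others were near 0. Their log2 fold changes of 1.78 (SE 1.35), 1.80 (SE 1.74) and 0.95 (SE 1.52) do not stand clear of their errors. Without ΔNSPs clone 2, AC079466.1 turned to -6.42 and AC112484.3 to -3.59. They lie on separate chromosomes and have exons and sequence of their own.

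Some coding genes followed the same order of libraries. Their likeness was looked up after the counts above were seen. CD74, the invariant chain of MHC class II, had 0.642, 65.6 and 0.422 CPM in ΔNSPs clones 1, 2 and 3, against 16.6, 1.74 and 1.74 CPM in Control lines 1, 2 and 3 (r = 0.997 with AC079466.1 and 0.993 with AC112484.3, log2 CPM, n = 6 libraries). IMPACT, a regulator of translation under stress, had 0, 19.9 and 0.0843 CPM in ΔNSPs clones and 12.02, 0.798 and 0.954 CPM in Control lines (r = 0.991 with AC112484.3). FES, a tyrosine kinase of myeloid cells, changed less, with 46.6, 102 and 50.01 CPM in ΔNSPs clones and 74.3, 57.8 and 57.2 CPM in Control lines (r = 0.990 with AC079466.1). CRIPT was the gene most like AC112484.3 (r = 0.996, and 0.987 with AC079466.1), yet its level hardly changed. It had 21.8, 24.6 and 21.9 CPM in ΔNSPs clones and 24.0, 22.5 and 22.3 CPM in Control lines. A high r thus describes the order of libraries and not the size of a change. LINC-ROR was most like FAM89A (r = 0.995), which had 0, 5.38 and 6.33 CPM in ΔNSPs clones and 3.66, 0.0725 and 0.260 CPM in Control lines. Next came MIR1279 (r = 0.993) and DNAH14 (r = 0.992). MIR1279 changed less, with 1.93, 2.96 and 3.12 CPM in ΔNSPs clones and 2.90, 2.10 and 2.08 CPM in Control lines.

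**Figure D3:**
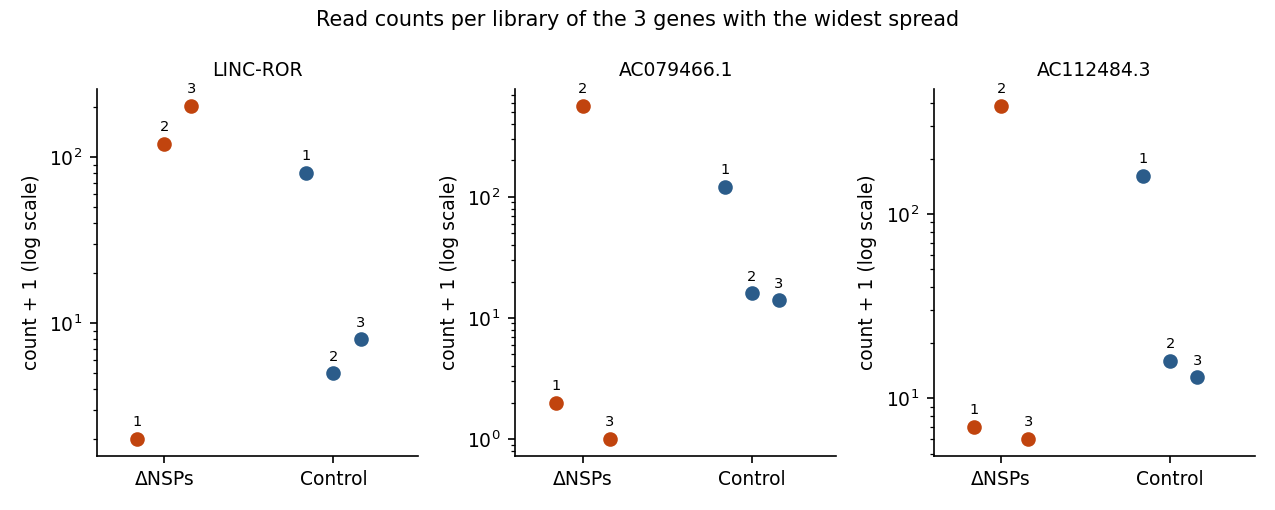
Read counts plus 1 (log scale) of LINC-ROR, AC079466.1 and AC112484.3 in ΔNSPs clones and Control lines 1 to 3, each library 1 numbered point. ΔNSPs clone 2 and Control line 1 are high in all 3 panels, and ΔNSPs clone 1 and Control lines 2 and 3 are low.

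Over the other members this likeness of ΔNSPs clone 2 and Control line 1 was only relative. As deviations from the mean of the 6 libraries on the log2 scale, the 161 members gave r = 0.43 between these libraries. The 158 left without LINC-ROR, AC079466.1 and AC112484.3 gave r = -0.33, and all tested genes gave -0.16. With Control lines 2 and 3, ΔNSPs clone 2 gave r = -0.43 and -0.54 over the 158 members, and -0.59 and -0.61 over all tested genes. Control line 1 was thus the Control line nearest to ΔNSPs clone 2 in both sets. ΔNSPs clones 1 and 2 gave r = -0.31 over the 158 members and -0.38 over all tested genes, and Control lines 2 and 3 gave 0.32 and 0.57. ΔNSPs clones 1 and 3 gave -0.23 and -0.31. With Control lines 2 and 3, ΔNSPs clone 1 gave r = -0.12 and -0.015 over the 158 members, and 0.093 and 0.098 over all tested genes. ΔNSPs clone 1 was thus nearer to these 2 Control lines than to the other ΔNSPs clones. These correlations describe libraries that share a common mean, so they are tied to each other. An r under 0 can thus arise between unrelated libraries.

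Within ΔNSPs clones the median member ranged over 0.50 log2 units, against 0.44 for the 5630 tested genes of similar level, and within Control lines over 0.33, against 0.32. A range over 2 log2 units was found for 3 of the 161 members among ΔNSPs clones and 3 among Control lines. Of all 14797 tested genes, 309 had such a range among ΔNSPs clones and 60 among Control lines. The median range of all tested genes was 0.42 log2 units in ΔNSPs clones and 0.29 in Control lines, so the wider spread in clones was not particular to the members. OLMALINC, named for oligodendrocyte maturation, had 5.78, 6.44 and 16.2 CPM in ΔNSPs clones 1, 2 and 3, against 17.5, 6.38 and 7.03 CPM in Control lines 1, 2 and 3. It stood high in ΔNSPs clone 3 and Control line 1 alone. At least 20% of the OLMALINC sequence lies in near-identical copies. SCD, the fatty acid desaturase gene 8679 bases away, had 945, 767 and 1158 CPM in ΔNSPs clones and 1582, 613 and 538 CPM in Control lines, with the same 2 libraries highest.

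Members that share more than 20% of their exonic length with a coding gene mostly followed that gene in direction. Over all 58 pairs with shared exon bases and both genes tested, the log2 fold changes had r = 0.52 (Spearman's rho 0.51). The sign was the same in 38 of them. Over the 30 pairs that share more than 20% of the member's exonic length r was 0.66, with the same sign in 25. Over the 28 pairs that share 20% or less r was 0.41 (Spearman's rho 0.25), with the same sign in only 13. These are correlations across genes of the same 6 libraries, given as description, and such pairs may share reads. AL355075.3 lies wholly within exons of PNP, which encodes purine nucleoside phosphorylase, on the other strand. AL355075.3 had 95.9, 70.0 and 114 CPM in ΔNSPs clones 1, 2 and 3 and 73.9, 68.6 and 72.4 CPM in Control lines, and PNP had 194, 148 and 236 CPM and 165, 147 and 146 CPM. Both were highest in clone 3 and near the lines in clone 2, with log2 fold changes of 0.38 for AL355075.3 and 0.34 for PNP.

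Members without shared exons followed their nearest coding gene less. Over 101 pairs r was 0.15. The 22 members whose start lay within 2 kb of the start of that gene gave r = 0.47, with the same sign in 16, and the 79 farther away gave r = 0.10, with the same sign in 45. The difference between these correlations was not tested. BARX1-DT with BARX1 belongs to the near pairs.

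**Figure D4:**
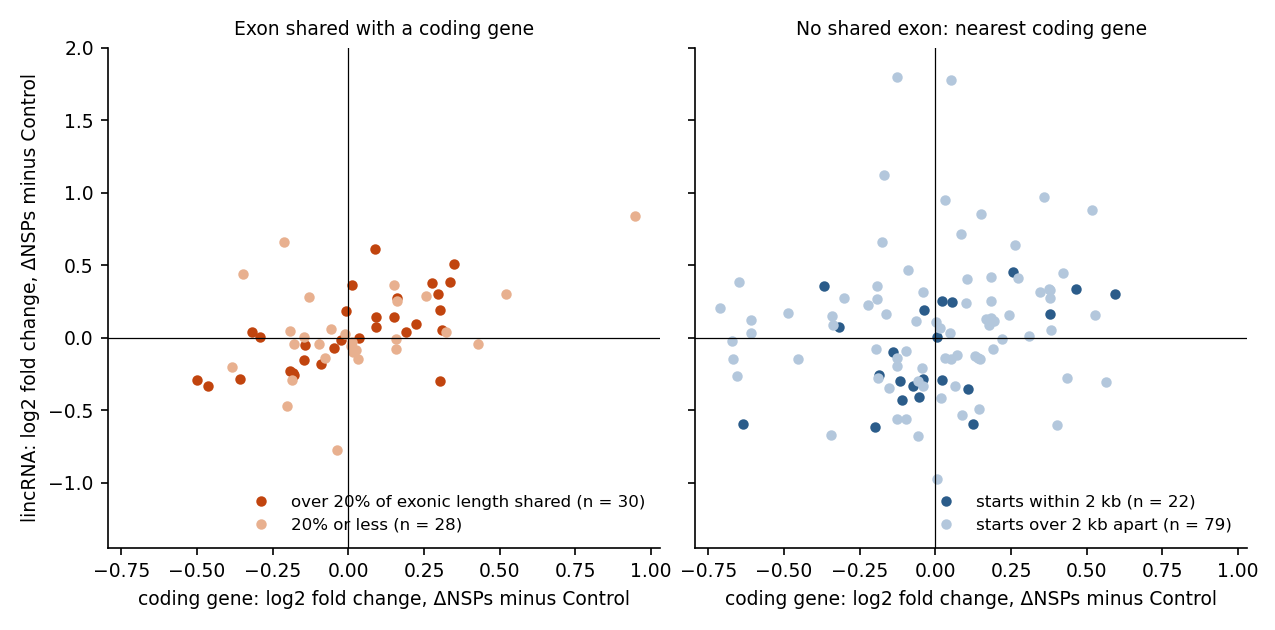
Log2 fold change (ΔNSPs minus Control) of each member against that of a coding gene, on the left the gene whose exons it shares (58 pairs) and on the right the nearest coding gene where none is shared (101 pairs). Dark points are pairs that share over 20% of the member's exonic length (left) or start within 2 kb of each other (right), and lie closer to a rising line than the pale points.

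Of the 62 members with exons and sequence of their own, none passed edgeR's adjusted threshold, and the lowest adjusted p was again 0.16. At an unadjusted p under 0.05, 10 were higher in ΔNSPs clones (16.1%, against 9.23% of all genes) and 4 were lower (6.45%, against 8.6%). Of the 90 members that share exon bases, 4 were higher (4.44%) and 6 lower (6.67%). The difference between these sets was not tested. DESeq2 called LINC01268 and AC110285.2 among the 62. The 62 members took 0.113 ± 0.00712% of all counts in ΔNSPs clones and 0.122 ± 0.0139% in Control lines (SD, n = 3 each; exact permutation test, p = 0.5, two-sided). This subset was drawn after the data were seen.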

How the data were processed

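RNA was sequenced from 6 U937 libraries, 3 ΔNSPs and 3 Control. The values are the raw counts the authors deposited, whole numbers per Ensembl gene without normalization. The submitters' processing notes name HTSeq 0.11.1, HISAT2 2.0.0, SAMtools 1.5.9 and FastQC, and the build GRCh38.p12. For the annotation release and the strand setting, the entry is: not given in the sources used here. The lowest sum of a row was 10 counts.

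Gene types and positions came from GENCODE v29 (GRCh38) by Ensembl identifier, with 18771 of 18798 genes matched, and promoters and microRNAs from RefSeq (GRCh38.p14). Genes of the role lists were matched by GENCODE name or current symbol. Exons were intersected within GENCODE, where snoRNAs, microRNAs and other small RNAs inside a member were not counted as overlap, and copies were found with BLAST 2.17.0 against all GENCODE transcripts.

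The test was edgeR 4.0.16 (R 4.3.3), quasi-likelihood with TMM, filterByExpr by group and Benjamini-Hochberg adjustment over the 14797 genes tested, two-sided, at an adjusted p under 0.05; it was also tested on simulated data. CPM are counts divided by the TMM-scaled total. Log2 fold changes are ΔNSPs minus Control. DESeq2 1.42.0, limma 3.58.1 (voom with quality weights), RLE factors, plain totals, no filter, the replicate block and leaving out each library were alternatives. Likeness and spread used log2 of CPM plus 0.5, and likeness between genes left out chromosomes 8, X and Y.

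Named members were the 10 with the highest CPM, the 8 largest differences each way without overlap at a mean of at least 2 CPM, up to 4 per role list, and the 4 widest ranges in each group. BAIAP2-DT, AL390957.1, SNHG19 and LINC00467 were named after their values were seen. The members, lists and tests were chosen with earlier results of these data known. Replicate numbers came from the labels and name libraries only. Depth was 11476619 to 13782854 counts, and limits from counts of 0 cover counting error alone, because PCR copies of a molecule were not marked.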

Additional observations from a re-analysis of the deposited data

How the results depend on the processing

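With edgeR 3 genes of the whole table and 0 lincRNAs were called. DESeq2 called 515 genes and 3 lincRNAs, and the fit with the replicate block called 0 genes and 0 lincRNAs. Same-numbered libraries deviated apart (r = -0.44, -0.16 and -0.15 for numbers 1, 2 and 3), and differently numbered ones gave r from -0.19 to 0.30. Deviations from a group mean of 3 libraries are tied to each other, so a pairing by number was not settled. Leaving out each library gave 0 to 928 genes called and 0 to 8 lincRNAs: without ΔNSPs clone 1, 928 genes and 8 lincRNAs (LINC01268, AC145207.5, AL390957.1 and AC093627.4 higher in ΔNSPs clones, AC110285.2, BAIAP2-DT, AC012313.1 and AC006504.5 lower), and without Control line 1, 20 genes. The cause was not tested. At an unadjusted p under 0.05, leaving out each library gave 7 to 17 lincRNAs higher and 4 to 18 lower, with 7 higher without Control line 2, 4 lower without Control line 3 and 18 lower without ΔNSPs clone 1. Among the 62 members with exons and sequence of their own, 4 were lower, from fewer genes. A minimum of 100 counts gave 332 members and one of 1000 counts gave 49, with 0 called in each. The median of the 6 snoRNA hosts ran from -0.036 without Control line 2 to 0.31 without Control line 3.

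Single members turned direction as follows, in log2 fold change. With limma voom AC139769.2 was at 0.057, OLMALINC at 0.13 and AC079466.1 at -1.27. With the replicate block AC079466.1 was at -1.31 and AC112484.3 at -0.53. Over the libraries left out, AC139769.2 ran from -0.12 to 0.086, MALAT1 from -0.24 to 0.13, SNHG4 from -0.11 to 0.15, MIR9-3HG from -0.10 to 0.29 and OLMALINC from -0.75 to 0.49. AC079466.1 ran from -6.42 without ΔNSPs clone 2 to 3.68 without Control line 1, and AC112484.3 from -3.59 to 3.23 without the same libraries. Of 481 alternative values for 37 named members, 451 kept their direction and their side of the threshold, or moved by less than the spread between libraries where no test applied.

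With 3 libraries a group the median SE of a member was 0.23 log2 units. The part of this spread in the number of calls was not tested. Overlapping genes and copies limit 99 of the 161 members.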
